A study of Mus musculus with 24 samples.

Results

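The tumor necrosis factor receptor-associated factors (TRAFs), the scaffold TANK and the kinases TBK1 and IKKε are signaling proteins that lie between receptors at the membrane and the transcription factors of the NF-κB and IRF families. The transcripts of 8 of their genes (*Traf1*, *Traf2*, *Traf3*, *Traf5*, *Traf6*, *Tank*, *Tbk1* and *Ikbke*, which encodes IKKε) are described here. They were chosen by symbol among the 24273 genes of the expression table, and 8 of 8 were found and passed the filter on low values. Expression was measured by RNA-seq in bone marrow-derived macrophages (BMDMs), grown in L-cell-conditioned medium from the marrow of C57BL/6 mice, with 3 libraries for each of 8 groups. The groups combined a genotype, LysM-Cre (the control) or FosKO (LysM-Cre Fos-fl/fl), with 0, 0.5, 1 or 2 h of stimulation with 100 ng/ml LPS, the bacterial lipopolysaccharide sensed by TLR4. Every group carried the LysM-Cre driver, in which the lysozyme gene *Lyz2* directs Cre recombinase to myeloid cells, and the study's text gives the controls a floxed *Fos* allele that the series description does not mention. Replicates were not stated to be separate mice, so p-values measure the spread between libraries only, and the age of the mice that gave the marrow was not stated.

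TRAF proteins bind the cytoplasmic tails of receptors, or adaptors recruited to them, and most carry a RING domain through which ubiquitin chains are built. In TLR4 signaling the MyD88 branch works through TRAF6, whose ubiquitin chains activate the kinase TAK1 and then NF-κB and MAPK. The TRIF branch works through TRAF3, which brings in TBK1 and IKKε to phosphorylate IRF3, the factor that drives type I IFN genes. TANK binds both TRAFs and these kinases. TRAF2 and TRAF3 also form, with the cIAP ubiquitin ligases, the complex that keeps the kinase NIK at a low level and so holds back noncanonical NF-κB signaling.

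All values are the deposited normalised log2 values, on which a difference of 1 is a 2-fold change. The depth of each library is not in the files, and errors given here are the spread among libraries. The labels could not be checked with *Fos*, because its transcript was higher in the libraries labelled FosKO at 0, 1 and 2 h, by 1.49, 1.64 and 3.29, and lower, by a difference of −0.77, at 0.5 h. The mean *Fos* value in LysM-Cre libraries was 11.11, 13.52, 11.15 and 9.52 at 0, 0.5, 1 and 2 h. Under the FosKO label it was 12.60, 12.75, 12.78 and 12.80. The time course of *Fos* thus differed between the labels, with a rise at 0.5 h and a later fall in LysM-Cre libraries only. *Lyz2*, the locus of the Cre driver, was higher under the FosKO label by 4.89 to 5.17 at the 4 times. Each direction below therefore rests on the labels. *Lyz2* level and genotype label went together in all 24 libraries, and the part of the *Lyz2* locus in the genotype differences was not tested. The study's text reports higher *Ifnb1* mRNA in FosKO macrophages after LPS, by RNA-seq and qRT-PCR, and more IFN-β protein by ELISA. It also reports lower *Fra1*, *Fra2* and *Il10* mRNA in these cells after LPS. Those transcripts were not used here to check the labels. Macrophage markers were present in all libraries (7 of 7 passed the filter, *Adgre1* at 14.61 to 15.21 and *Csf1r* at 14.95 to 15.28). Of the markers of other cells, none of 4 for T or NK cells and none of 4 for B cells passed the filter, against 2 of 4 for dendritic cells, 2 of 4 for fibroblasts and 1 of 4 in the table for neutrophils. The summed linear level of the neutrophil markers was lower in the libraries labelled FosKO than in LysM-Cre libraries at each time, without overlap. It was 14.4 to 19.0 against 22.2 to 32.3 at 0 h and 18.2 to 22.7 against 25.3 to 32.3 at 0.5 h. At 1 h it was 20.1 to 22.1 against 31.6 to 44.2, and at 2 h 21.2 to 24.5 against 38.8 to 49.8. *Ly6g* and *Elane* were at the floor of the table in all 24 libraries. *Camp* lay at 1.56 to 2.11, below the filter, and *Ngp*, at 3.46 to 5.49, made up most of the neutrophil sum. The summed level of the fibroblast markers was 10.4 to 16.3 against 16.5 to 20.1 at 0 h and 10.2 to 14.0 against 14.9 to 18.4 at 1 h. It overlapped at 0.5 and 2 h, and *Pdgfra* and *Dcn* were below the filter. The part of either marker set in the genotype differences was not tested. Libraries also split by 18S ribosomal RNA. The gene *Rn18s-rs5* lay at 16.65 to 17.00 in 5 libraries, all at 0.5 or 1 h, and at 18.57 to 19.39 in the other 19, so genotype differences within each set are given for the members called at those times. All 0 h libraries were in the high set, so an LPS response within the low set could not be computed.

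On the GRCm38 (mm10) build, *Traf1* lies at chr2:34941750-34961772 and *Traf2* at chr2:25517982-25546940, both on the minus strand. *Tank* (chr2:61578585-61654171) and *Traf6* (chr2:101678429-101701669) lie on the same chromosome on the plus strand. *Traf3* is at chr12:111166370-111267153 on the plus strand. *Traf5* (chr1:191997205-192092559), *Ikbke* (chr1:131254343-131279606) and *Tbk1* (chr10:121546455-121586787) are on the minus strand. All 8 are annotated as protein-coding, and each has 1 value per library. *Ikbke* overlaps 2 antisense genes, *Gm28913* and *Gm28914*, with mean levels of 5.37 and 2.59, far below its own, and it was not stated whether counting used the strand.

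Because NF-κB and AP-1, the dimer to which FOS contributes, are the factors most often linked to early LPS responses, the RefSeq promoter windows of the members (GRCm38.p6, 250 bases before the start site and 50 after) were searched on both strands for 4 motifs. These were the NF-κB consensus, AP-1 (TGANTCA), CRE (TGACGTCA) and ISRE (GAAA, then 2 bases of any kind, then GAAA). All 8 members had a window, 11 in total, of which 4 belonged to *Tank*. A match was found in 3 members. Among all 32851 windows of the same length, 8.46% held the NF-κB consensus, 7.81% AP-1, 1.79% CRE and 3.44% ISRE. The sequences shown are the 100 bases before the start site and the start base itself, for the 3 members with a match and for *Traf1*, the member with the largest response to LPS, which had none. Capitals mark motif letters. For *Ikbke* (chr1:131279563-131279663, minus strand) and for the downstream start of *Tank* (chr2:61592997-61593097, plus strand) the last 7 bases match AP-1, and the *Tank* sequence also holds the NF-κB consensus from 72 bases before the start. The upstream start of *Tank* (chr2:61578486-61578586, plus strand) and *Traf3* (chr12:111166270-111166370, plus strand) hold the NF-κB consensus, on the minus and the plus strand. The *Traf1* sequence is chr2:34961772-34961872, minus strand. A match describes letters in a window and is not a bound site.
Ikbke: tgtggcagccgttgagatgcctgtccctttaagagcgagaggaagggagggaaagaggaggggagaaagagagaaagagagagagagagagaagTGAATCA
Tank, downstream start: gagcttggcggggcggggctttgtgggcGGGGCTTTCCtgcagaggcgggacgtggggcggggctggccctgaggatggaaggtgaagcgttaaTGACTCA
Tank, upstream start: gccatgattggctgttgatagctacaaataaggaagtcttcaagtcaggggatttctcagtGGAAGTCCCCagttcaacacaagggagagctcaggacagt
Traf3: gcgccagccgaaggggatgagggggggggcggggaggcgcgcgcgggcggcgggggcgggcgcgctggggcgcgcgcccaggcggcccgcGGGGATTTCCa
Traf1: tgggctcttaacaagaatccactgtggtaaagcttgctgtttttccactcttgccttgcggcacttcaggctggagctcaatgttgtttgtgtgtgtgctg

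To compare genes with each other, each log2 value was set per kilobase of exon. In unstimulated LysM-Cre macrophages the kinases and TANK were the most abundant of the members. *Tbk1* was at 9.64 ± 0.01, *Ikbke* at 9.38 ± 0.06 and *Tank* at 9.10 ± 0.05 (SD, n = 3, log2 per kilobase). The TRAF genes followed, with *Traf1* at 7.53 ± 0.06, *Traf3* at 7.36 ± 0.03, *Traf6* at 7.27 ± 0.03, *Traf2* at 6.94 ± 0.03 and *Traf5* at 6.61 ± 0.10. No 2 neighbours in this order overlapped in their libraries. The length was taken over all annotated exons of a gene, and an error in it is not part of this spread. After 2 h of LPS the order in LysM-Cre was *Ikbke* (10.88 ± 0.06), *Tank* (10.43 ± 0.06), *Tbk1* (10.07 ± 0.03) and *Traf1* (10.03 ± 0.04), and *Tbk1* and *Traf1* overlapped there. *Traf1* thus moved up to the level of *Tbk1*, while *Traf5* stayed the lowest member at 6.69 ± 0.11. In unstimulated libraries labelled FosKO each of the first 3 overlapped with its neighbour in the order (*Ikbke* 9.98 ± 0.14, *Tbk1* 9.82 ± 0.08, *Tank* 9.62 ± 0.17), as did *Traf6* (7.40 ± 0.07), *Traf3* (7.36 ± 0.04) and *Traf2* (7.30 ± 0.07) in turn.

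**Figure D1:**
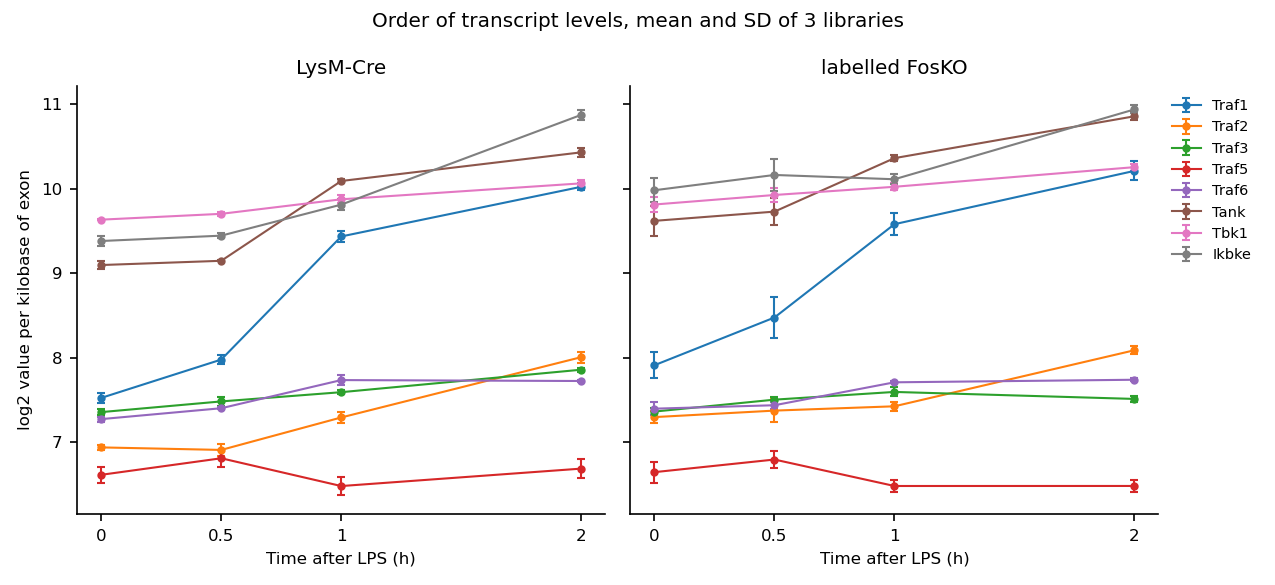
Transcript levels of the 8 members in log2 value per kilobase of exon against hours of LPS, in LysM-Cre (left) and libraries labelled FosKO (right); points are means and bars the SD of 3 libraries. *Tbk1*, *Ikbke* and *Tank* lay above the TRAF genes among the 8 members before LPS (9.64, 9.38 and 9.10 in LysM-Cre, against at most 7.53). *Traf1* reached 10.03 in LysM-Cre at 2 h.

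The response of the members to LPS was first examined in LysM-Cre macrophages. At 2 h, 7 of 8 members had risen, where 30.6% of the 13901 genes tested were called higher, 4200 genes lower and 60.8% in either direction. *Traf1* rose most, and *Ikbke*, *Tank* and *Traf2* rose by more than 2-fold, whereas the changes of *Traf3*, *Traf6* and *Tbk1* were smaller. *Traf5* did not pass the test at any time. In such bulk libraries a change in RNA per cell and a change in the share of cells that make it cannot be told apart. In the same libraries the summed linear level of the dendritic cell markers was 30.0 to 32.6 at 0 h and 110.9 to 122.3 at 2 h, and that of the neutrophil markers was 22.2 to 32.3 and 38.8 to 49.8, and their part in these rises was not tested. The count was 7 of 8 at 1 h (19.2% of genes called higher) and 3 of 8 at 0.5 h (5.09% called higher), and the members' median change was 0.10, 0.39 and 0.79 at 0.5, 1 and 2 h, beside 0.00, 0.00 and −0.02 over all genes tested (calls by limma at a Benjamini-Hochberg adjusted p under 0.05).

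*Traf1* encodes the TRAF that lacks a RING domain and acts together with TRAF2. Its 3 LysM-Cre libraries were at 9.56, 9.48 and 9.59 before LPS, at 9.96, 9.97 and 10.05 at 0.5 h, at 11.38, 11.47 and 11.51 at 1 h, and at 12.00, 12.04 and 12.08 at 2 h. No time overlapped with the one before it. The change was 0.45 ± 0.09 (SE) at 0.5 h, 1.91 ± 0.09 at 1 h and 2.5 ± 0.09 at 2 h, a 5.66-fold rise (limma adjusted p = 2.51e-15). *Traf2*, whose product recruits the cIAP ligases to TNF receptors, moved later. Its libraries were at 8.54, 8.59 and 8.53 before LPS, at 8.52, 8.45 and 8.60 at 0.5 h, at 8.84, 8.93 and 8.96 at 1 h and at 9.70, 9.56 and 9.61 at 2 h, so that the 1 h libraries stood above those of 0 h and the 2 h libraries above both. After 0.5 h it differed by −0.03 ± 0.06, and it rose by 0.35 ± 0.06 after 1 h and 1.07 ± 0.06 after 2 h (adjusted p = 1.23e-12 by limma).

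*Tank* changed between 0.5 and 1 h. Its LysM-Cre libraries were at 11.02, 11.02 and 11.10 before LPS, 11.11, 11.10 and 11.10 at 0.5 h, 12.02, 12.04 and 12.07 after 1 h, and 12.34, 12.37 and 12.45 after 2 h. The first times overlapped, and the later times stood apart from them and from each other, with a change of 1.00 ± 0.07 at 1 h and 1.33 ± 0.07 at 2 h (limma adjusted p = 5.39e-13). *Ikbke*, the inducible one of the IKK-related kinases, changed mainly between 1 and 2 h. It was at 11.18, 11.08 and 11.07 before LPS, at 11.15, 11.16 and 11.21 at 0.5 h, at 11.58, 11.47 and 11.57 at 1 h, and at 12.57, 12.56 and 12.67 at 2 h. Its change was 0.43 ± 0.07 at 1 h and 1.49 ± 0.07 at 2 h, or 2.82-fold (adjusted p = 1.90e-13, limma). *Tbk1*, its close relative, moved less. It was at 11.24, 11.24 and 11.22 before LPS, 11.32, 11.30 and 11.28 after 0.5 h, 11.44, 11.46 and 11.52 after 1 h and 11.63, 11.66 and 11.70 after 2 h, and rose by 0.24 ± 0.04 at 1 h and 0.43 ± 0.04 at 2 h, which quantile normalisation lowered to 0.13 and 0.22, both still called. All calls of members for 1 h of LPS against 0 h in LysM-Cre were kept in the 19 high-18S libraries alone. That set held 1 LysM-Cre library at 1 h.

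*Traf6* reached its level within 1 h. The LysM-Cre libraries were at 9.87, 9.91 and 9.92 before LPS, 10.02, 10.04 and 10.02 at 0.5 h, 10.39, 10.40 and 10.29 after 1 h, and 10.36, 10.35 and 10.34 at 2 h, with a change of 0.46 ± 0.03 at 1 h and 0.45 ± 0.03 at 2 h. *Traf3* rose by 0.24 ± 0.03 at 1 h and 0.50 ± 0.03 at 2 h, from 10.16, 10.21 and 10.23 before LPS to 10.41, 10.43 and 10.46 and then 10.67, 10.72 and 10.70. Its rise at 1 h was 0.14 under quantile normalisation, still called. Calls at 0.5 h for *Traf3* (0.13 ± 0.03, adjusted p = 0.0166 by limma) and *Traf6* (0.13 ± 0.03, adjusted p = 0.0190) were lost under quantile normalisation, in the 19 high-18S libraries, and without LysM-Cre replicate 1 at 0 h or replicate 2 or 3 at 0.5 h. *Traf5*, a TRAF of the TNF receptor superfamily, was at 7.51 to 7.69 before LPS, 7.68 to 7.88 at 0.5 h, 7.38 to 7.57 at 1 h and 7.54 to 7.75 at 2 h, with differences from 0 h of 0.20, −0.13 and 0.07.

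**Figure D2:**
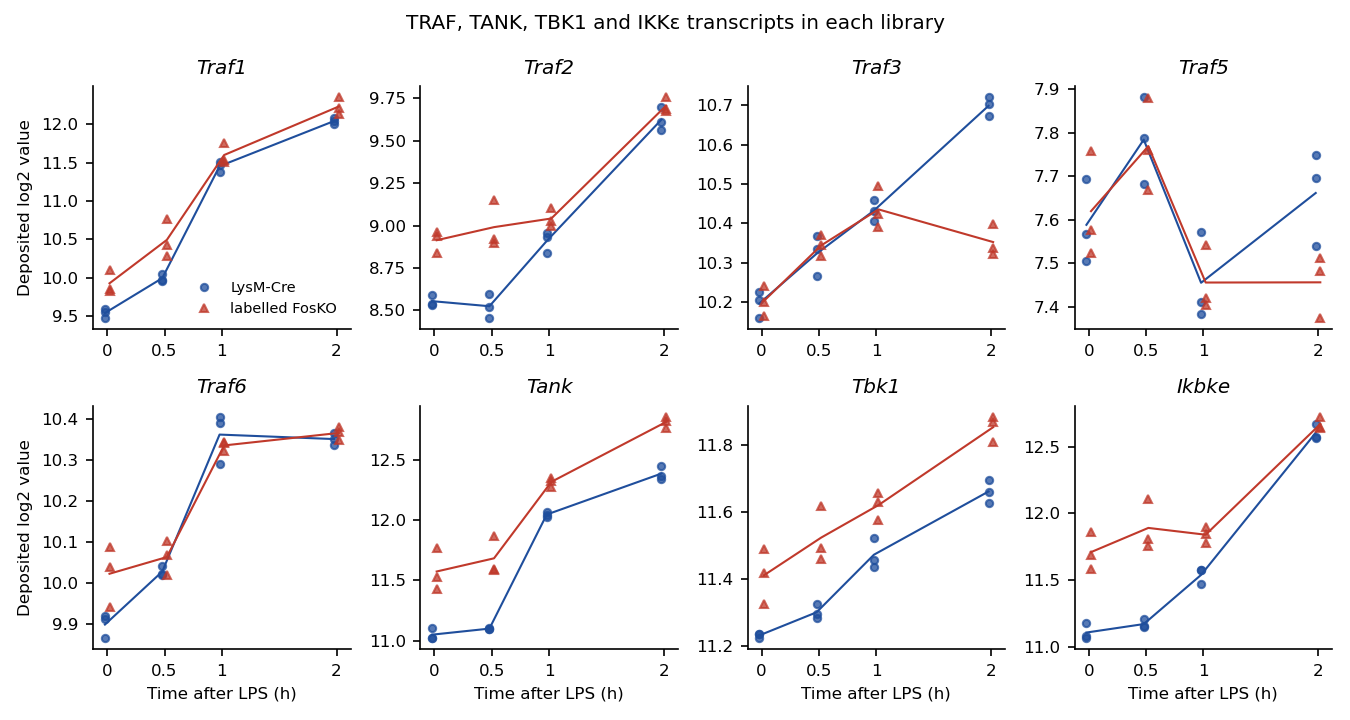
Deposited log2 values of each member in each of the 24 libraries against hours of LPS, with circles for LysM-Cre, triangles for libraries labelled FosKO, and lines through the means of 3 libraries. Each panel has its own vertical range. *Tank* libraries labelled FosKO lay above the controls at each of the 4 times, and *Traf3* separated at 2 h only (10.32 to 10.40 against 10.67 to 10.72).

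The next comparison addressed how the FosKO genotype related to these transcripts. Before LPS, 6 of 8 members were higher in the libraries labelled FosKO and none was lower, where 19.5% of genes tested were called higher and 15.9% lower. After 0.5 h of LPS 5 of 8 were higher and 0 lower (21.2% and 19.7% of genes), and after 1 h 3 of 8 were higher and 0 lower (18% and 15.9% of genes). After 2 h 2 of 8 were higher and 2 of 8 lower (24.4% and 20.3% of genes). The median difference of the members was 0.27, 0.34, 0.14 and 0.07 at the 4 times, beside 0.00 over all genes tested at each. *Tank* and *Tbk1* were higher at all 4 times, *Ikbke* at 0, 0.5 and 1 h, *Traf1* and *Traf2* at 0 and 0.5 h, and *Traf6* at 0 h. The genes lower at 2 h were *Traf3* and *Traf5*. The largest difference of a member was 0.72 (*Ikbke* at 0.5 h), or 1.65-fold.

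*Ikbke* had the largest genotype difference of the members before LPS. Libraries labelled FosKO were at 11.58, 11.69 and 11.86 against 11.18, 11.08 and 11.07 in LysM-Cre, a difference of 0.60 ± 0.07 (SE; 1.52-fold, limma adjusted p = 1.73e-06). At 0.5 h they were at 11.81, 11.76 and 12.11 against 11.15, 11.16 and 11.21, a difference of 0.72 ± 0.07 (adjusted p = 1.14e-07). The groups did not overlap at either time. At 1 h the values were 11.78, 11.84 and 11.90 against 11.58, 11.47 and 11.57, and the difference was 0.30 ± 0.07 (adjusted p = 0.0027). At 2 h the groups overlapped, with 12.64, 12.65 and 12.72 against 12.57, 12.56 and 12.67 and a difference of 0.06 (95% confidence interval −0.09 to 0.22). The kinase transcript was therefore apart between genotypes before and early after LPS and within the spread of the libraries at 2 h.

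*Tank* kept its difference at 2 h. Before LPS it was at 11.43, 11.53 and 11.77 in the libraries labelled FosKO, against 11.02 to 11.10 in LysM-Cre, and at 0.5 h at 11.58, 11.59 and 11.87 against 11.10 to 11.11. The libraries were at 12.28, 12.33 and 12.35 against 12.02 to 12.07 at 1 h, and at 12.82, 12.76 and 12.85 against 12.34 to 12.45 at 2 h. At no time did the groups overlap. The difference was 0.52 ± 0.07, 0.58 ± 0.07, 0.27 ± 0.07 and 0.43 ± 0.07 at 0, 0.5, 1 and 2 h (limma adjusted p = 5.06e-06, 8.91e-07, 0.00413 and 3.30e-05).

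*Tbk1* showed smaller differences of one direction. The libraries labelled FosKO were at 11.33, 11.42 and 11.49 before LPS, 11.49, 11.46 and 11.62 at 0.5 h, 11.58, 11.66 and 11.63 after 1 h and 11.89, 11.81 and 11.87 at 2 h. Each group lay above its LysM-Cre group without overlap, by 0.18 ± 0.04, 0.22 ± 0.04, 0.15 ± 0.04 and 0.19 ± 0.04 (adjusted p = 0.00147, 0.000143, 0.00692 and 0.000566, limma). The call at 2 h was lost under quantile normalisation, where the difference was 0.05 (adjusted p = 0.157) and that at 1 h 0.08 (adjusted p = 0.0404), and the largest adjusted p of the other alternatives tried at 2 h stayed under the threshold.

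*Traf1* and *Traf2* differed before LPS and at 0.5 h. *Traf1* was at 9.86, 9.83 and 10.10 in unstimulated libraries labelled FosKO against 9.48 to 9.59 in controls, and at 10.43, 10.29 and 10.77 against 9.96 to 10.05 at 0.5 h, with differences of 0.39 ± 0.09 and 0.50 ± 0.09 (limma adjusted p = 0.0027 and 0.000212). *Traf2* was at 8.84, 8.94 and 8.96 against 8.53 to 8.59, and at 8.92, 8.90 and 9.15 against 8.45 to 8.60, with differences of 0.36 ± 0.06 and 0.47 ± 0.06 (adjusted p = 5.40e-05 and 1.70e-06). Neither gene overlapped between the groups at these times. At 1 and 2 h neither passed the test, with 0.15 and 0.19 for *Traf1* (95% confidence intervals −0.05 to 0.34 and −0.01 to 0.38) and 0.13 and 0.08 for *Traf2* (0.01 to 0.25 and −0.04 to 0.20). For *Traf1* at 2 h the libraries labelled FosKO, at 12.21, 12.13 and 12.35, still stood above the controls at 12.00 to 12.08, and it was called when only the groups compared were fitted (adjusted p = 0.0126, limma).

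*Traf3* was called between the genotypes at 2 h and at no other time. It was at 10.16, 10.20 and 10.24 in the libraries labelled FosKO before LPS, 10.34, 10.32 and 10.37 at 0.5 h and 10.39, 10.42 and 10.49 at 1 h, and overlapped with LysM-Cre at these times, with differences of 0.01, 0.02 and 0.00 and 95% confidence limits no further from 0 than −0.06 and 0.09. At 2 h it was at 10.40, 10.32 and 10.34 against 10.67, 10.72 and 10.70, with a difference of −0.35 ± 0.03 (0.787-fold, adjusted p = 3.25e-08 by limma). This call was kept under each alternative tried, between −0.39 and −0.33. At this time the summed linear level of the dendritic cell markers was 85.1 to 87.8 in the libraries labelled FosKO and 110.9 to 122.3 in LysM-Cre libraries, against 29.0 to 37.2 and 30.0 to 32.6 before LPS, with *Flt3* and *Siglech* below the filter, and their part in the result was not tested. *Traf5* was at 7.37, 7.48 and 7.51 against 7.54, 7.75 and 7.69 at 2 h, with a difference of −0.21 ± 0.08 (limma adjusted p = 0.0421). That call was lost under 8 of 15 alternatives, among them the fit without LysM-Cre replicate 2 or 3 or replicate 1 or 2 of the libraries labelled FosKO at 2 h, where the values ran from −0.22 to −0.16 with adjusted p from 0.0646 to 0.165. *Traf6* was at 9.94, 10.04 and 10.09 against 9.87, 9.91 and 9.92 before LPS, a difference of 0.12 ± 0.03 (adjusted p = 0.0064 in limma), a call lost under 3 of 15 alternatives, among them the fit without replicate 3 labelled FosKO (0.09, adjusted p = 0.0521) and quantile normalisation (0.08, adjusted p = 0.0739). At 0.5, 1 and 2 h *Traf6* differed by 0.04, −0.03 and 0.01.

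One library stood at the top of its group for every member. Replicate 3 labelled FosKO at 0 h was the highest of its 3 libraries for 8 of 8 members, and for 38.6% of all genes tested. At 0.5 h replicate 3 labelled FosKO was the highest for 7 of 8 members (37.3% of genes), at 1 h for 7 of 8 (35.9% of genes) and at 2 h for 6 of 8 (37.8% of genes). Among LysM-Cre libraries the largest such count was 6 of 8, for replicate 3 at 1 h (35.8% of genes). Without the 0 h library the differences at that time were 0.53 for *Ikbke*, 0.43 for *Tank*, 0.14 for *Tbk1*, 0.30 for *Traf1* and 0.33 for *Traf2*, each still called (limma adjusted p = 1.84e-05, 2.36e-05, 0.0145, 0.0256 and 0.000556). Within the 18S sets at 0.5 h, the difference in the high set (2 libraries against 2) and in the low set (1 against 1) was 0.78 and 0.60 for *Ikbke*, 0.63 and 0.49 for *Tank*, 0.23 and 0.21 for *Tbk1*, 0.56 and 0.37 for *Traf1* and 0.54 and 0.33 for *Traf2*. At 1 h, with 2 against 1 in the high set and 1 against 2 in the low set, it was 0.29 and 0.26 for *Ikbke*, 0.31 and 0.22 for *Tank* and 0.21 and 0.08 for *Tbk1*. The uncalled *Traf1* and *Traf2* differed at 1 h by 0.27 and 0.21 in the high set and by 0.02 and 0.08 in the low set. The direction was the same in both sets for each of the called genes. With the high set alone, *Ikbke* and *Tank* were not called at 1 h (adjusted p = 0.0753 and 0.0525, limma).

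**Figure D3:**
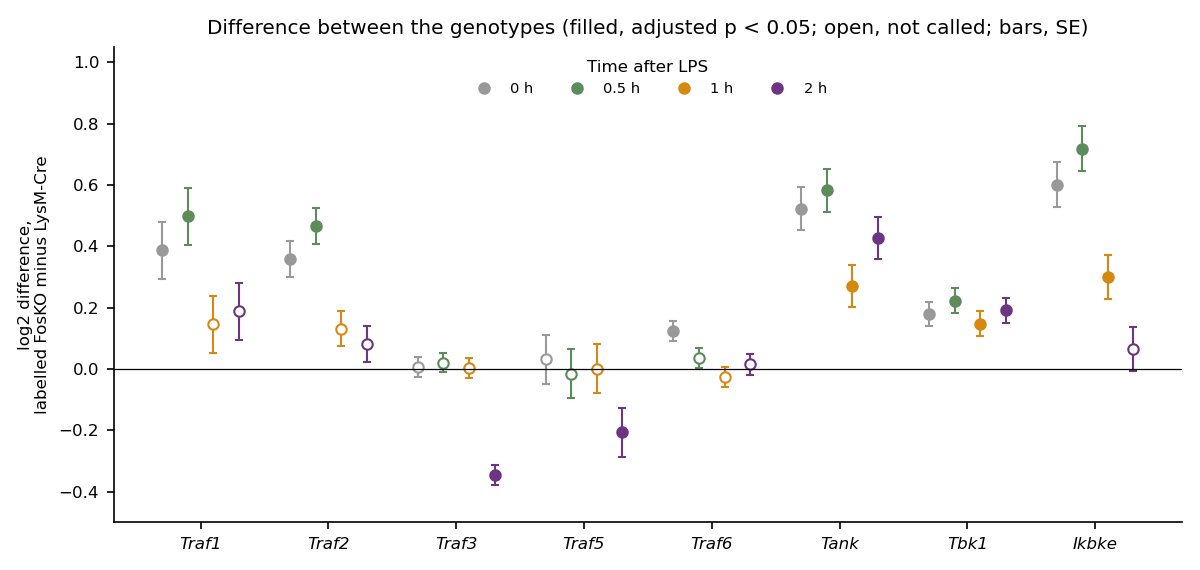
Difference of the mean log2 value between libraries labelled FosKO and LysM-Cre libraries (3 against 3) for each member at 0, 0.5, 1 and 2 h of LPS, with bars for the SE and filled points for adjusted p under 0.05 in limma. *Tank* and *Tbk1* were filled at all 4 times, *Ikbke* went from 0.72 at 0.5 h to 0.06 at 2 h, and *Traf3* was at −0.35 at 2 h.

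The LPS response was then followed within the libraries labelled FosKO. At 2 h, 7 of 8 members had risen from 0 h (32.6% of genes tested were called higher, 29.5% lower and 62.1% in either direction). After 1 h 5 of 8 had (17.6% of genes called higher), and after 0.5 h 2 of 8 (4.45% of genes). *Traf1* rose by 2.30 ± 0.09 at 2 h, *Tank* by 1.24 ± 0.07, *Ikbke* by 0.96 ± 0.07, *Traf2* by 0.79 ± 0.06, *Tbk1* by 0.44 ± 0.04, *Traf6* by 0.34 ± 0.03 and *Traf3* by 0.15 ± 0.03. In these libraries the summed linear level of the dendritic cell markers was 29.0 to 37.2 at 0 h and 85.1 to 87.8 at 2 h. That of the neutrophil markers was 14.4 to 19.0 and 21.2 to 24.5. The part of both marker sets in the rises was not tested. Quantile normalisation lowered the rises of *Ikbke*, *Tbk1* and *Traf6* to 0.63, 0.14 and 0.21, each still called, and that of *Tbk1* at 1 h from 0.21 to 0.08 (adjusted p = 0.0399, limma). The rise of *Traf3* was lost under quantile normalisation, at 0.01 (adjusted p = 0.678 by limma). The calls at 0.5 h were *Traf1* (0.57, adjusted p = 0.000361) and *Traf3* (0.14, adjusted p = 0.00864). *Traf1* was not called when only the groups compared were fitted (adjusted p = 0.108), and *Traf3* was not called without replicate 1 at 0 h or replicate 3 at 0.5 h (0.12 and 0.13, adjusted p = 0.0548 and 0.0541). Without replicate 3 at 0 h, *Tank*, *Tbk1* and *Ikbke* were called as well (0.21, 0.15 and 0.26). At 1 h *Ikbke* and *Traf2* did not pass the test (0.13 and 0.13, against rises of 0.43 and 0.35 in LysM-Cre), and the *Ikbke* value became 0.21 (adjusted p = 0.0374) without replicate 3 at 0 h. Both were called with replicate number within genotype as a block (limma adjusted p = 0.0439 and 0.0493). The labels do not state whether these numbers pair the libraries. *Traf5* was at −0.16 at both 1 and 2 h and was not called, although at 2 h it was without replicate 1 at 0 h (−0.21, adjusted p = 0.0446).

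Whether the response differed between genotypes was tested directly, as the change from 0 h in libraries labelled FosKO minus that in LysM-Cre. At 2 h the response was smaller for 3 of 8 members and larger for none, where 7.7% of genes tested were called lower and 7.27% higher. The members' median was −0.22, beside 0.02 over all genes. For *Ikbke* the response was smaller by −0.54 ± 0.10 (limma adjusted p = 0.000978), with values from −0.64 to −0.46 over the alternatives tried. For *Traf3* it was smaller by −0.35 ± 0.05 (adjusted p = 1.62e-05), with values from −0.38 to −0.33. For *Traf2* the difference was −0.28 ± 0.08 (adjusted p = 0.0253), and it lost its call without any one of 7 libraries, LysM-Cre replicate 1 or 3 at 0 h, replicate 2 or 3 labelled FosKO at 0 h, LysM-Cre replicate 1 at 2 h, and replicate 1 or 2 labelled FosKO at 2 h (−0.27 to −0.24, adjusted p from 0.0525 to 0.0735).

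These 3 genes came to it from different starting points. *Ikbke* and *Traf2* were higher before LPS in the libraries labelled FosKO and overlapped with the controls at 2 h, whereas *Traf3* overlapped before LPS and was lower at 2 h. *Tank* and *Tbk1* showed no called difference in response at 2 h (−0.10 and 0.01, 95% confidence intervals −0.30 to 0.11 and −0.11 to 0.13), nor did *Traf1* (−0.20, −0.47 to 0.08), *Traf5* (−0.24, −0.47 to −0.0014) and *Traf6* (−0.11, −0.21 to −0.01). *Traf6* was called at 2 h, and at 1 h as well, without replicate 1 labelled FosKO at 0 h (−0.15 and −0.19, adjusted p = 0.0244 and 0.0259). At 1 h none of 8 members was called by limma (1.22% of genes tested were called), and 4 of 8 had an unadjusted p under 0.05, as did 7.72% of genes, with values of −0.30 for *Ikbke*, −0.25 for *Tank*, −0.23 for *Traf2* and −0.15 for *Traf6*. Over the alternatives tried these ran from −0.37 to −0.23, −0.33 to −0.16, −0.26 to −0.15 and −0.19 to −0.12. With replicate number within genotype as a block, *Ikbke* and *Traf1* (−0.24) were called at 1 h (limma adjusted p = 0.0279 and 0.042). *Traf1* was then also called at 2 h (adjusted p = 0.0239). At 0.5 h none of 8 was called (0.115% of genes), and 0 had an unadjusted p under 0.05, which 6.51% of genes had.

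**Figure D4:**
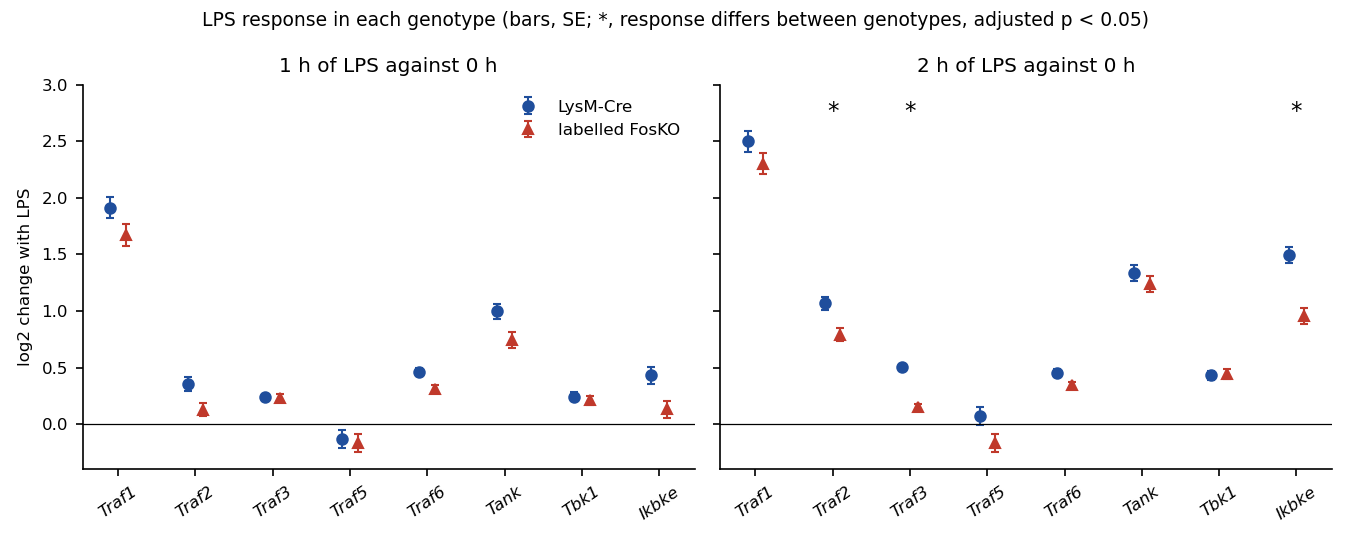
Change in log2 value after 1 h (left) and 2 h (right) of LPS against 0 h for each member, with circles for LysM-Cre, triangles for libraries labelled FosKO and bars for the SE. Asterisks mark members whose response differed between genotypes by limma without a replicate block, which were *Traf2*, *Traf3* and *Ikbke* at 2 h and none at 1 h.

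The table also held the TRAF genes *Traf4* and *Traf7*. *Traf4* was low, at 2.39 to 2.99 over the 24 libraries, and was not called in any of 13 comparisons. *Traf7*, a RING protein without the TRAF domain of the family, was at 9.82 to 10.09 and was higher under the FosKO label, by 0.11 at 0.5 h and 0.12 at 2 h, both calls lost under quantile normalisation, and fell by 0.09 after 2 h of LPS in LysM-Cre, a call lost without replicate 1 at 0 h or at 2 h (−0.07 each). The call at 0.5 h was also lost without replicate 3 labelled FosKO (0.08).

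The adaptors and targets of TBK1 and IKKε (7 genes, all tested) were next compared, as a list chosen with results of these data known. Before LPS 5 of 7 were higher in the libraries labelled FosKO and 0 lower. The counts were again 5 and 0 after 0.5 h of LPS, 4 and 0 after 1 h, and 4 and 1 after 2 h, with a median difference of 0.17, 0.19, 0.12 and 0.34. The background for this list and those that follow is the share of all genes tested that were called higher, 19.5%, 21.2%, 18% and 24.4% in order of time, and called lower, 15.9%, 19.7%, 15.9% and 20.3%. *Azi2*, which encodes NAP1, an adaptor related to TANK in function, was higher by 0.41, 0.57, 0.49 and 0.59 ± 0.06 at the 4 times (limma adjusted p = 3.18e-05, 3.65e-07, 4.00e-06 and 2.02e-07). *Optn*, the autophagy receptor optineurin, which TBK1 phosphorylates, was higher by 0.61, 0.59, 0.38 and 0.34 ± 0.06. *Ticam1*, which encodes TRIF, was higher by 0.27 and 0.23 at 0 and 0.5 h, and at 1 and 2 h its differences of 0.01 and 0.03 were not called. *Tbkbp1*, which encodes the adaptor SINTBAD, and *Tmem173*, which encodes STING, were higher by 0.41 and 0.35 at 2 h. *Tmem173* was also called at 0 h (0.17) and 0.5 h (0.15), and *Tbkbp1* at 0.5 h (0.19), but these calls were lost without single libraries. They were replicate 3 labelled FosKO at 0 h for the first (0.14), LysM-Cre replicate 2 or replicate 3 labelled FosKO at 0.5 h for the next (0.11 and 0.10), and LysM-Cre replicate 1 or 2 or replicate 3 labelled FosKO at 0.5 h for *Tbkbp1* (0.13 to 0.17). Both calls at 0.5 h were also lost when only the groups compared were fitted (adjusted p = 0.0848 for *Tmem173* and 0.0857 for *Tbkbp1*, limma). The call for *Tbkbp1* at 1 h (0.16, adjusted p = 0.0492) was lost under 9 alternatives. With LPS at 2 h, 4 of 7 genes of the list rose and 2 fell in LysM-Cre, and 5 rose and 2 fell in the libraries labelled FosKO. Of all 13901 genes tested, 30.6% rose and 4200 fell in LysM-Cre, and 32.6% rose and 29.5% fell under the FosKO label. *Mavs*, the adaptor of cytosolic RNA sensing, fell by 0.28 in LysM-Cre and by 0.59 in the libraries labelled FosKO. It was the gene of the list that was lower under the FosKO label at 2 h (−0.23 ± 0.03, limma adjusted p = 2.91e-06), a call kept under each alternative tried, and at 1 h it was higher (0.12, adjusted p = 0.00465). At 0 h its call (0.08, adjusted p = 0.0341), 1 of the 5 before LPS, was lost under quantile normalisation, with no filter, with only the groups compared, and without any single library of that time other than replicate 3 labelled FosKO (0.07 to 0.09). The rise of *Tmem173* in the libraries labelled FosKO (0.12, adjusted p = 0.0328) and the fall of *Tbkbp1* there (−0.17, adjusted p = 0.0207) were lost when only the groups compared were fitted, that of *Tmem173* also under quantile normalisation (0.04), TMM scaling (0.08), no filter and in the high-18S libraries alone. Both were lost without replicate 1 or 2 at 0 h, and at 2 h without replicate 1 or 3 (*Tmem173*, 0.09 to 0.12 over these) or 1 or 2 (*Tbkbp1*, −0.16 to −0.14). The rise of *Ticam1* at 2 h in the libraries labelled FosKO was lost under quantile normalisation (0.04, limma adjusted p = 0.246).

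A list of 11 genes was drawn from the TRAF2-TRAF3 complex and noncanonical NF-κB signaling, and also held *Trafd1* and *Traf3ip2*, which are not core parts of either. Of the 11, 6 were higher and 2 lower before LPS under the FosKO label, and likewise after 0.5 h. The counts were 3 and 2 after 1 h, then 5 and 2 after 2 h. *Trafd1*, a zinc finger protein known as an inhibitor of TLR signaling, was higher by 0.66, 0.86, 0.74 and 0.67 ± 0.09 at the 4 times. *Traf3ip2*, which encodes the IL-17 receptor adaptor ACT1, was lower, with differences of −0.34, −0.45, −0.41 and −0.39 ± 0.07. *Map3k14* encodes NIK, the kinase whose protein TRAF3 and TRAF2 hold low, and only its RNA was measured here. This RNA was lower before LPS (−0.19 ± 0.05, limma adjusted p = 0.00228) and after 0.5 and 1 h (−0.35 ± 0.05 each, adjusted p = 3.23e-06 and 4.57e-06). After 2 h it was higher (0.47 ± 0.05, adjusted p = 7.01e-08). *Relb* was higher by 0.34 and 0.42 at 0 and 0.5 h, and at 1 and 2 h its differences of 0.02 and −0.06 were not called, although under quantile normalisation that at 2 h was (−0.16, adjusted p = 0.0144). With 2 h of LPS 8 of 11 rose and 2 fell in LysM-Cre, and 7 rose and 0 fell in the libraries labelled FosKO, beside 30.6% of genes risen and 4200 of 13901 fallen in LysM-Cre, and 32.6% and 29.5% under the FosKO label. *Map3k14* just missed the threshold there (−0.11, limma adjusted p = 0.05003) and was called as fallen with TMM scaling, a filter at 20, 18S as a term, or without replicate 2 labelled FosKO at 0 h (−0.14 to −0.11). The rise of *Trafd1* under the FosKO label, from a mean of 12.62 to 13.10, was lost under quantile normalisation (0.10, limma adjusted p = 0.242). In LysM-Cre and under the FosKO label, *Nfkb2*, the precursor of p52, rose by 2.08 and 1.89. *Relb*, its partner subunit, rose by 1.78 and 1.38, and *Birc3* by 1.63 and 1.64.

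Of 12 genes around TRAF6 and TAK1, 6 were higher and 1 lower before LPS under the FosKO label, followed by 5 and 1 after 0.5 h, 3 and 1 after 1 h, and 3 and 2 after 2 h. The kinase-like adaptor *Irak2* was higher by 0.47, 0.57, 0.28 and 0.45 ± 0.07 at the 4 times. *Peli1*, a ubiquitin ligase of this pathway, was higher by 0.47, 0.52, 0.59 and 0.55 ± 0.08, and *Tifa*, which binds TRAF6, by 0.46, 0.50, 0.33 and 0.49 ± 0.07. After 2 h of LPS 7 of 12 rose and 3 fell in LysM-Cre, and 7 rose and 4 fell in the libraries labelled FosKO. The fallen were near the share of all genes, 4200 of 13901 in LysM-Cre and 29.5% under the FosKO label, whereas 30.6% and 32.6% of genes rose. *Peli1* rose by 2.87 and 2.95 and *Irak2* by 1.63 and 1.60, whereas *Tab1*, a partner of TAK1, fell by 1.2 and 1.54. Over all genes tested, the shares called higher and lower at 2 h, 24.4% and 20.3%, were near those of this list (3 and 2 of 12).

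Over the 24 libraries, the transcript whose pattern was most like that of *Traf1* was *Nfkbie* (Pearson r = 0.998), which encodes the NF-κB inhibitor IκBε, followed by *Sod2* (0.995). For *Tank* these were *Tgm2* (0.993) and *Etf1* (0.989), for *Tbk1* *Slamf7* (0.989) and *Trex1* (0.985), for *Ikbke* *Gsap* (0.987) and *Cxcl11* (0.986), and for *Traf2* *Rnf14* (0.988) and *Vasp* (0.984). The values for *Traf6* were 0.974 (*Chic2*) and 0.973 (*Coq10b*), for *Traf3* 0.926 (*Gm43814*) and 0.912 (*Tgfbr1*), and for *Traf5* 0.842 (*Edrf1*) and 0.819 (*Asb7*). These coefficients describe likeness over libraries that share their times and genotypes, and carry no test.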

How the data were processed

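The authors mapped reads from single-end, strand-specific TruSeq libraries to the mouse genome with STAR and counted them per gene with RSEM (STAR 2.5.2a, RSEM 1.2.31 and DESeq2 1.16.1 in the submitters' processing notes). They deposited one normalised log2 value per gene and library. The values ran from −2.22 to 19.39, and the log2 transformation was not described. If it shrinks genes with few reads, their differences are understated. Annotation named in the study was RefSeq, whereas identifiers were Ensembl. The files give no reads per library, and the study names only a typical yield, so counting error per value is unknown.

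The values were used as deposited. The test had been planned for normalised values, with a pseudocount of 1 if they were linear, which became an alternative. Genes with a linear value of at least 5 in at least 3 libraries (13901) entered one limma fit (limma 3.58.1, R 4.3.3) of 8 group means over 24 libraries, with 16 residual degrees of freedom and trended empirical Bayes variances, and 13 comparisons were drawn from it. P-values were adjusted over all genes tested by the Benjamini-Hochberg method and called under 0.05. With 3 against 3, an exact two-sided permutation test of one gene cannot go below 0.1 and was not used. The fit was also run on simulated data, and no outcome of that run is reported here.

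Named were all members, *Traf4*, *Traf7*, up to 3 called genes per partner list with the largest difference in each genotype comparison and each 2 h LPS comparison, the 2 genes of highest correlation with each member, and *Fos* and *Lyz2*. The members and lists were chosen with earlier results of these data known. Alternatives were quantile and TMM scaling (trimmed mean of M values, computed on linear values), the pseudocount, no filter and a filter at 20, fitting only the groups compared, replicate blocks, 18S as a term, the high-18S libraries alone, and leaving out each library. Levels per kilobase used exon lengths of the GENCODE annotation of GRCm38.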

Additional observations from a re-analysis of the deposited data

Results flagged for a closer look

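The difference between the genotypes in the response to 2 h of LPS passed the limma test for 3 members, and the effects of LPS in the 2 genotypes therefore differed by a test of the difference itself. For *Ikbke* it was −0.54 on the log2 scale, from a rise of 1.49 in LysM-Cre libraries and 0.96 in libraries labelled FosKO. For *Traf3* it was −0.35, from rises of 0.50 and 0.15, and under quantile normalisation the smaller rise was 0.01 and no longer called. For *Traf2* it was −0.28, from rises of 1.07 and 0.79, a call that was lost without any one of 7 libraries.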

How the results depend on the processing

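No called member changed direction under any alternative. Of 768 member values recomputed without 1 library, 741 kept their side of the threshold, 20 lost a call and 7 gained one. Counts of members called changed as follows, replicate blocks apart, and the cause was not tested. In the high-18S libraries alone, which leaves 19 libraries, the count at 1 h between genotypes went from 3 to 1, at 0.5 h of LPS from 3 to 1 in LysM-Cre and from 2 to 1 in libraries labelled FosKO. Under quantile normalisation the 2 h genotype count went from 4 to 2 and the 0.5 h LPS count in LysM-Cre from 3 to 1. Fitting only the groups compared, with fewer libraries, left 0 at 0.5 h of LPS in libraries labelled FosKO and 2 in LysM-Cre, and at 2 h between genotypes it lost *Traf5* and gained *Traf1*. Smaller moves were from 6 to 5 at 0 h between genotypes (quantile normalisation, only the groups compared, without replicate 3 labelled FosKO), from 4 to 3 at 2 h (high-18S libraries, no filter, without any one of 4 libraries), from 5 to 6 at 1 h of LPS in libraries labelled FosKO (without replicate 3 at 0 h) and from 7 to 6 at 2 h (quantile normalisation) or 8 (TMM scaling, without replicate 1 at 0 h). Without 1 library at a time, the count at 0.5 h of LPS ran from 1 to 3 in LysM-Cre and from 1 (without replicate 1 at 0 h or replicate 3 at 0.5 h) to 5 (without replicate 3 at 0 h) in libraries labelled FosKO, and the difference in response at 1 h from 0 to 1 (*Traf6*, without replicate 1 labelled FosKO at 0 h, when it was also called at 2 h, −0.15) and that at 2 h from 2 to 4. A pseudocount of 1, a filter at 20 and 18S as a term changed no call of a member. TMM scaling added *Traf5* at 2 h of LPS in libraries labelled FosKO (−0.20, adjusted p = 0.0349), and no filter removed *Traf5* between genotypes at 2 h (−0.21, adjusted p = 0.0627).

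Quantile normalisation moved the share of all called genes that were higher, between genotypes, from 55.1 to 45.3 percent at 0 h, 51.9 to 45.6 at 0.5 h, 53.1 to 42.8 at 1 h and 54.6 to 43 at 2 h. For LPS at 0.5, 1 and 2 h the moves were from 70.3 to 48.3, 53.8 to 37.6 and 50.3 to 40 percent in LysM-Cre, and from 75.2 to 50.3, 54 to 35.3 and 52.5 to 39.2 percent in libraries labelled FosKO, and no scaling moved the median of all genes by over 0.1. Whether replicate numbers pair the samples is not stated in the labels, and the numbers did not meet the rule used for pairing, a correlation over 0.1 in every pair. Deviations of same-numbered libraries of one genotype correlated across genes at −0.248 to 0.706 over 36 pairs, although 22 of 24 libraries correlated best, on average over the other times, with their own number, a hint from the data and not from the design. With the replicate block *Traf2* at 1 h (0.13, adjusted p = 0.0486) and *Traf1* at 2 h (0.19, adjusted p = 0.0143) gained calls between genotypes, and with a replicate block within genotype 7 calls were added. In libraries labelled FosKO these were *Ikbke* at 0.5 h (0.18) and 1 h of LPS (0.13, adjusted p = 0.0439), *Traf2* at 1 h (0.13, adjusted p = 0.0493) and *Traf5* at 2 h (−0.16), which took the count at 1 h from 5 to 7, and 2 members, *Ikbke* (−0.30) and *Traf1* (−0.24), were called for the difference in response at 1 h, and *Traf1* at 2 h (−0.20). The depth of each library is not in the files, and changes in genes with few reads, such as *Traf4*, may not be detectable here.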
